A study of Mus musculus with 4 samples.

Results

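The genes described here are 10 parts of the Notch signalling system that were read on otocyst arrays: the ligands Dll1, Dll3, Dll4, Jag1 and Jag2, the fringe enzymes Lfng, Mfng and Rfng, the Notch-binding membrane protein Dner and the receptor Notch1. They were chosen by name, as every non-control probe whose annotated gene was one of the 10, which gave 14 of 39429 probes. A probe was kept where the scanner marked it as well above background in 1 genotype on 3 or more of the 4 arrays; this held for all 14 and for 23177 probes in all. For 12 of the 14, that mark was present on every array for mutant and control RNA alike. By their known sites of expression the genes were grouped as neuroblast (Dll1, Dll3, Mfng), prosensory (Jag1, Lfng), vessel (Dll4) and other (Jag2, Rfng, Dner, Notch1).

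In Notch signalling a ligand on one cell binds a receptor on its neighbour, and the receptor is cut so that its intracellular part enters the nucleus and turns on Hes and Hey genes together with the DNA-binding factor Rbpj. Fringe enzymes add a sugar to the receptor and thereby shift its answer between Delta-type and Jagged-type ligands. In the otocyst, the epithelial vesicle that forms the inner ear, Delta-type ligands are known from neuroblasts that leave the epithelium to form the ganglion, Jag1 and Lfng from the patches that will form sensory organs, and Dll4 from the endothelium of growing vessels.

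The otocysts came from NMRI mouse embryos at E10.5 by mechanical dissection. Mutants (Tbx2/3cDKO) carried Pax2-cre with Tbx2(fl/fl) and Tbx3(fl/fl), so that a cre under Pax2 control acted on floxed alleles of 2 T-box factor genes. Controls were Tbx2(fl/?) and Tbx3(fl/?) with no cre in the label, and thus had at least 1 floxed allele of both genes as well. On each of 4 arrays a mutant RNA was set against a control RNA of the same sex in another dye, female for replicates 1 and 2, male for 3 and 4. The mutant RNA carried AlexaFluor647 (red) on replicates 1 and 3 and AlexaFluor555 (green) on replicates 2 and 4. No label says whether an RNA came from 1 embryo or from a pool, and the spread that the p-values rest on may therefore be technical.

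Between 58.8% and 61.7% of the spots of an array were well above background. Across the kept probes the 4 arrays' log2 ratios correlated with Pearson r from 0.643 to 0.849, probes not being independent replicates. The targeted gene Tbx3 had a log2 ratio of mutant over control of -3.43 ± 0.16 (SD, n = 4 arrays), and Tbx2, for which the position of the deleted part relative to the probe was not examined, one of 0.06 ± 0.23. The tissue label was checked with 14 otic epithelium markers, all of which were well above background in every control RNA; 11 were lower in the mutant and 1 higher.

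Of the 14 probes, 8 were higher and 2 lower in the mutant by limma at a Benjamini-Hochberg adjusted p under 0.05. Among all kept probes 12.4% were called higher and 9.67% lower. All 5 probes of the neuroblast genes were among the 8, with Dll3 far ahead at 3.43-fold; Dll4, Jag2 and 1 of 2 Notch1 probes were the others. Lfng and Dner were lower by 1.25-fold and 1.34-fold, and Jag1 and both Rfng probes were not called. The 4 mutant levels and the 4 control levels did not overlap for 9 of the 14 probes, as they did not for 22.4% of all kept probes. Dner and the called Notch1 probe are in these counts, but passed the filter only through the genotype where they were higher. With the mark required in both genotypes on all arrays, 12 member probes were tested, and 7 were higher and 1 lower. Over all 21686 probes at that setting, 2531 were higher and 2010 lower. At the brightest kept probe of each gene the 10 genes had a median log2 ratio of 0.38. The median was 0.0037 over all genes or unnamed targets read in the same way, and -0.00041 over all kept probes.

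The start regions of Dll1 and Dll3 (neuroblast), Jag1 and Lfng (prosensory) and Dll4 (vessel), which stand for the 3 named groups, are given here with the letters of 3 motifs. RefSeq windows (GRCm38.p6) were matched by symbol for 9 of the 10 genes, with no entry for Mfng; the 250 bases before the annotated start are used here. Capitals mark matches on either strand to CANNTG (the E-box, read by proneural factors), TGGGAA (a core of Rbpj sites) or GGTGTGA (a T-box core). For Dll1, which has 2 windows, the one at the more upstream start is printed.
Dll1, chr17:15376933-15377182, minus strand: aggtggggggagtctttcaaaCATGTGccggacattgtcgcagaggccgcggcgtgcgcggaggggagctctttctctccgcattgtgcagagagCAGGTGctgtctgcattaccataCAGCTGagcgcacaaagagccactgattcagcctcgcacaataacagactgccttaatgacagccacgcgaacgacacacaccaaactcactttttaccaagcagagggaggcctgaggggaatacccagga
Dll3, chr7:28301786-28302035, minus strand: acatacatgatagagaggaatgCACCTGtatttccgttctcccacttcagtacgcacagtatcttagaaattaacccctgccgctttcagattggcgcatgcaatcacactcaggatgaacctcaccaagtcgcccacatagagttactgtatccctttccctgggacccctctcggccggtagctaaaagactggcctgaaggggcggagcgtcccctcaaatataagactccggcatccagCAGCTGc
Jag1, chr2:137116521-137116770, minus strand: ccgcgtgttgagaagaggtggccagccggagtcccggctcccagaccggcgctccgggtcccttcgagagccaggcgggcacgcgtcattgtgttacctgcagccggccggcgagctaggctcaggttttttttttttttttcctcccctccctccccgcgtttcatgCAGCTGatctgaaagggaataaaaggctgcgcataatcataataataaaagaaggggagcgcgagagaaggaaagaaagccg
Lfng, chr5:140607091-140607340, plus strand: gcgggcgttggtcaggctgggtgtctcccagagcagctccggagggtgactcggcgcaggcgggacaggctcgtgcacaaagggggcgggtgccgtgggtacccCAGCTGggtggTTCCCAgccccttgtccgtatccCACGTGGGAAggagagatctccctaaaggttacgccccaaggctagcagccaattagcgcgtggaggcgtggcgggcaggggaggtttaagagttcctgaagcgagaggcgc
Dll4, chr2:119325534-119325783, plus strand: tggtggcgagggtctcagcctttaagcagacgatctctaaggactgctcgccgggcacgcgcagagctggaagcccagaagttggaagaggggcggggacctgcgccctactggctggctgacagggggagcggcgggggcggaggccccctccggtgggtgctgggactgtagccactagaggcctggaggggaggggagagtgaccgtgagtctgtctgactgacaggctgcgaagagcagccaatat

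The printed Dll1 window held 3 E-boxes and the other Dll1 window 1, Dll3 held 2, Jag1 and Rfng 1 each, and Lfng 2. Lfng was the gene with Rbpj cores, 2 of them, 135 and 108 bases before the start, and the latter shares bases with the E-box that begins 112 bases before the start. No E-box letters were in the Dll4, Jag2, Dner or Notch1 windows, no Rbpj core in any window but that of Lfng, and no T-box core in any of the 9 genes' windows. Over 32841 mouse windows of the same length, 66.2% held an E-box, 21.6% the Rbpj core and 3.33% the T-box core. A match describes the letters of the window and is not a bound site.

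**Figure D1:**
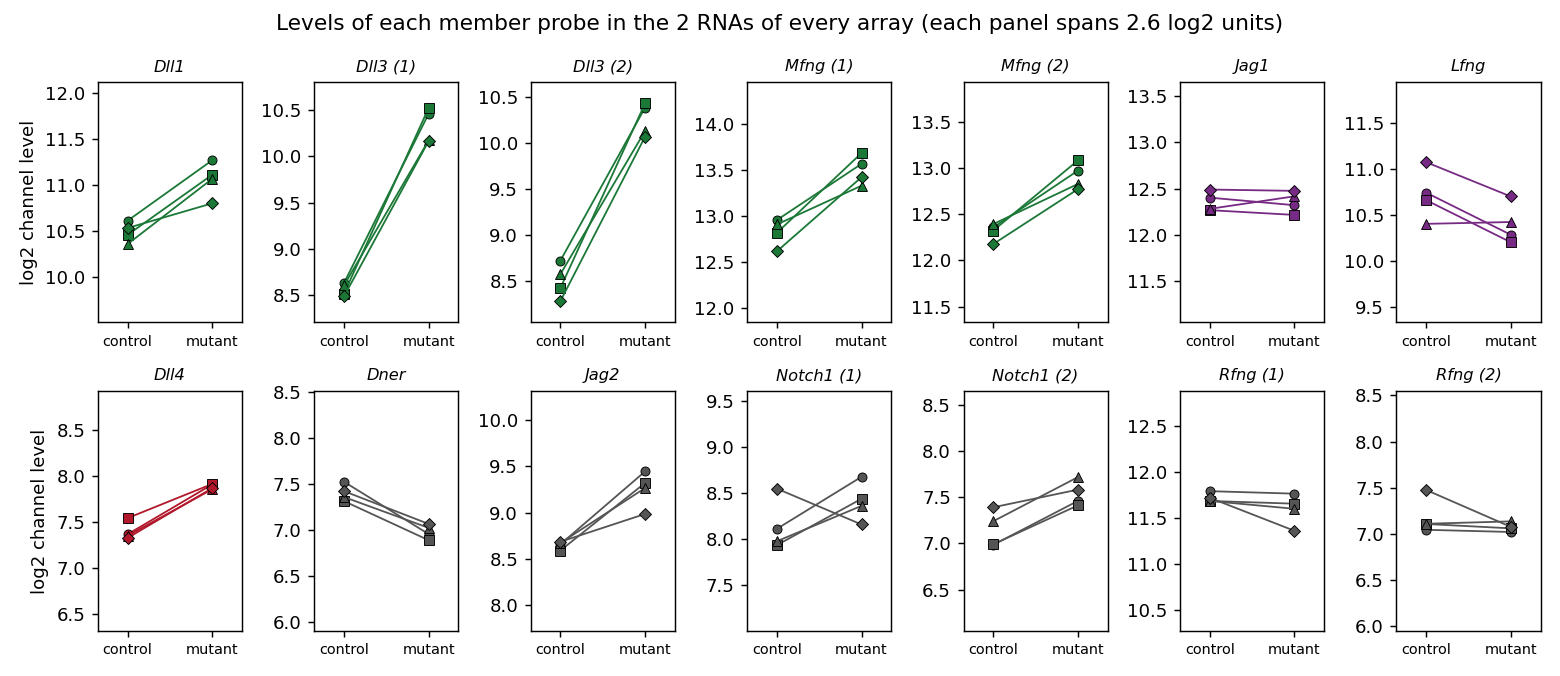
Log2 channel levels (y axis, arbitrary units after normalization) of the 14 member probes in the control and mutant RNA of each array, joined by a line per array; circles, squares, triangles and diamonds are replicates 1, 2, 3 and 4, and (1) and (2) are the brighter and dimmer probe of a gene. Dll3 rises steeply on every array with both probes, Jag1 lies flat, and the first Notch1 probe goes down on replicate 4 while it goes up on the other 3.

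Dll3, a Delta relative that does not activate the receptor on neighbouring cells and acts within the cell that makes it, showed the largest difference. Its brighter probe had log2 channel levels of 10.46, 10.53, 10.17 and 10.17 in the mutant RNA of replicates 1 to 4, against 8.63, 8.51, 8.60 and 8.48 in the control RNA. Every mutant level lay above every control level. The log2 ratios were 1.84, 2.01, 1.57 and 1.69, a mean of 1.78 ± 0.19 (SD, n = 4 arrays; limma SE 0.08, adjusted p = 2.31e-05). This ratio was above that of 99.9% of all kept probes. The second probe had levels of 10.38, 10.43, 10.13 and 10.06 in the mutant and 8.72, 8.42, 8.57 and 8.28 in the control, and gave a log2 ratio of 1.75 ± 0.19 (limma adjusted p = 1.09e-05), or 3.36-fold. Both probes lie on chromosome 7 in the files' mm9 coordinates, the first at 29078763 to 29078822 and the second at 29079061 to 29079120.

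The first 30 bases of both 60-base Dll3 probes are given to show that the 2 readings come from different stretches.
Dll3 probe 1: gaaagggctttattgtacatattgcttatt
Dll3 probe 2: tgaagatggagactctagatccatttatgt

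Mfng, a fringe enzyme, had log2 levels of 13.57, 13.68, 13.33 and 13.42 in the mutant and 12.96, 12.82, 12.91 and 12.62 in the control at its brighter probe (chromosome 15, 78586332 to 78586391, mm9). Mutant and control levels did not overlap. Its log2 ratios on replicates 1 to 4 were 0.61, 0.87, 0.42 and 0.80, a mean of 0.68 ± 0.20 (SD, n = 4 arrays; limma SE 0.06, adjusted p = 0.000292). The dimmer probe on chromosome 15 (78586430 to 78586489, mm9) gave 0.62, 0.76, 0.44 and 0.60, a mean of 0.60 ± 0.13. Both probes were lowest on replicate 3 and highest on replicate 2.

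Dll1, the Delta ligand by which a neuroblast holds back its neighbours, was read by 10 spots of 1 probe on chromosome 17 (15504623 to 15504682, mm9). Its levels were 11.27, 11.11, 11.07 and 10.80 in the mutant and 10.61, 10.46, 10.36 and 10.53 in the control, again without overlap. The log2 ratio was 0.66, 0.65 and 0.71 on replicates 1 to 3 and 0.27 on replicate 4. The SD between the 10 spots of an array, which covers spot noise within an array only, was 0.03 to 0.05. The mean was 0.57 ± 0.20 (SD, n = 4 arrays; limma SE 0.07, adjusted p = 0.00170), which is 1.49-fold.

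Neuroblast and early neuron markers were higher on the same arrays. Of 15 such genes outside the 10 members, 14 were tested, and 12 were higher and 0 lower, with a median log2 ratio of 1.05. Their summed level (linear channel units, brightest kept probe of each) ranged from 21591 to 23796 in the control RNAs and from 37408 to 45610 in the mutant RNAs. The log2 ratio was 1.65 for the neurofilament gene Nefm, 1.53 for the sensory neuron factor Pou4f1 and 1.27 for Ina. Neurog1, which starts neuroblast formation, had 0.16 and was not called (adjusted p = 0.0908). The list median by array was 0.94, 1.17, 0.71 and 1.04, lowest on replicate 3, as for Mfng and Dll3, whereas Dll1 had its highest ratio there. Of the list, Neurod4 did not pass the filter. Of 14 hindbrain markers, the neural tissue beside the otocyst, 5 passed the filter; 2 were higher, 1 lower, and the summed level was 4016 to 4708 in the control and 4625 to 5322 in the mutant. The log2 ratios of those called were 2.14 for En2, 1.05 for Pax3 and -0.41 for Hoxb2. The sum weighs Hoxa2 most, the brightest of the 5, which had 0.17 and was not called. Egr2 and Atoh1 were among the 9 that did not pass the filter. En2 was well above background in the mutant but on 0 of 4 arrays in the control. It is thus in the count only through the genotype where it was higher. RNA of whole dissected otocysts does not tell more cells of a type from more RNA per cell. The part of these cell types in the values of Dll1, Dll3 and Mfng was not tested.

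**Figure D2:**
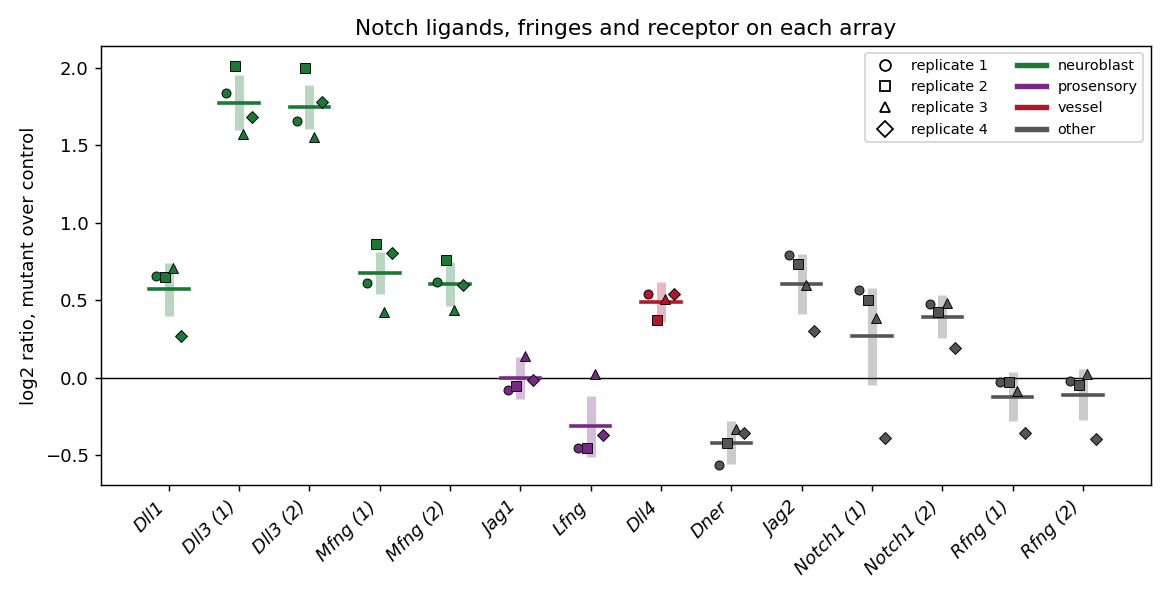
Log2 ratio of mutant over control (y axis) for the 14 member probes; symbols are the 4 arrays, horizontal bars the limma estimate and shaded bars its 95% confidence interval. Both Dll3 probes stand near 1.8, the other neuroblast genes, Dll4 and Jag2 near 0.5 to 0.7, Jag1 and Rfng near 0, and Lfng and Dner below 0.

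Neither gene of the prosensory pair was called higher. Jag1, a ligand required for sensory patches, had log2 levels of 12.32, 12.21, 12.42 and 12.48 in the mutant and 12.40, 12.27, 12.28 and 12.49 in the control (chromosome 2, 136907433 to 136907492, mm9). The groups overlapped throughout, and the 4 ratios were -0.08, -0.05, 0.14 and -0.01. The limma estimate was -0.0029 with a 95% interval from -0.14 to 0.13 (adjusted p = 0.979), which leaves room for changes of up to about that size in either direction.

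Lfng, the fringe enzyme of the prosensory patches and of the neurogenic region, had levels of 10.29, 10.20, 10.42 and 10.701 in the mutant and 10.74, 10.66, 10.40 and 11.07 in the control (chromosome 5, 141091224 to 141091283, mm9). The groups overlapped, the highest mutant level (replicate 4) standing above the lowest control level (replicate 3). Within arrays the ratio was -0.46 on replicates 1 and 2, 0.02 on replicate 3 and -0.37 on replicate 4. The mean was -0.32 ± 0.23 (SD, n = 4 arrays; limma SE 0.08, adjusted p = 0.0338), lower on 3 of 4 arrays. The call was lost without replicate 1 (log2 ratio -0.20, adjusted p = 0.135) and without replicate 2 (-0.30, adjusted p = 0.0579), and also with the ratios of the scanner software (-0.34, adjusted p = 0.0630). Without replicate 1, replicate 3 alone had the mutant in red, and with the dye term it weighed as much as replicates 2 and 4 together. Over 15 alternatives the limma adjusted p ran from 0.00502 to 0.135.

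Of 9 other prosensory markers, 8 were tested, 5 were lower and 1 higher, and the median log2 ratio was -0.36. Sox2, a factor of the neural and sensory competent epithelium, had -0.48, Fgf20, a ligand of prosensory growth, -0.67, and Gata3 -1.10. Their summed level was 61788 to 70011 in the control and 59100 to 62363 in the mutant, so the 2 ranges overlapped.

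Dll4, the Delta ligand of vessel sprouts, was dim, with levels of 7.91, 7.91, 7.85 and 7.87 in the mutant and 7.37, 7.54, 7.35 and 7.33 in the control. The mutant values lay within a narrow band above all control values. The log2 ratio was 0.49 ± 0.08 (SD, n = 4 arrays; limma SE 0.05, adjusted p = 0.00101), higher on 4 of 4 arrays, at a probe on chromosome 2 (119160779 to 119160838, mm9). With normexp at an offset of 0 the log2 ratio was 0.66, and with the scanner software's ratios, which differ in normalization as well, it was 0.81. All 13 vessel markers tested, of 14, were higher, with a median of 0.60 and a summed level of 22996 to 25737 in the control and 32898 to 35986 in the mutant. Sox17, a factor of arterial endothelium, had 0.79, Emcn 0.70 and Pecam1 0.66; the ratio of Dll4 thus lay inside the range of the vessel list. Whether Dll4 moved beyond these markers was not tested.

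Markers of other cells in the dissected tissue were mostly higher too. All 10 erythroid markers were higher with a median log2 ratio of 1.12, the summed level being 279190 to 434985 in the control and 828058 to 906111 in the mutant. Of 9 macrophage markers 6 were higher (median 0.37; summed level 3954 to 4492 in the control and 4677 to 6597 in the mutant), Ptprc being on no array above background in the control. Of 10 periotic mesenchyme markers tested 8 were higher, Osr1 at 1.24 and Foxc1 at 0.93 among them (median 0.41; 47384 to 51328 in the control and 58020 to 65005 in the mutant). Otic epithelium markers, with a median of -0.73, -1.94 for Hmx2 and -1.50 for Gbx2, had a summed level of 214970 to 236142 in the control and 107723 to 122418 in the mutant. The part of these tissue differences in the values of the 10 genes was not tested.

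**Figure D3:**
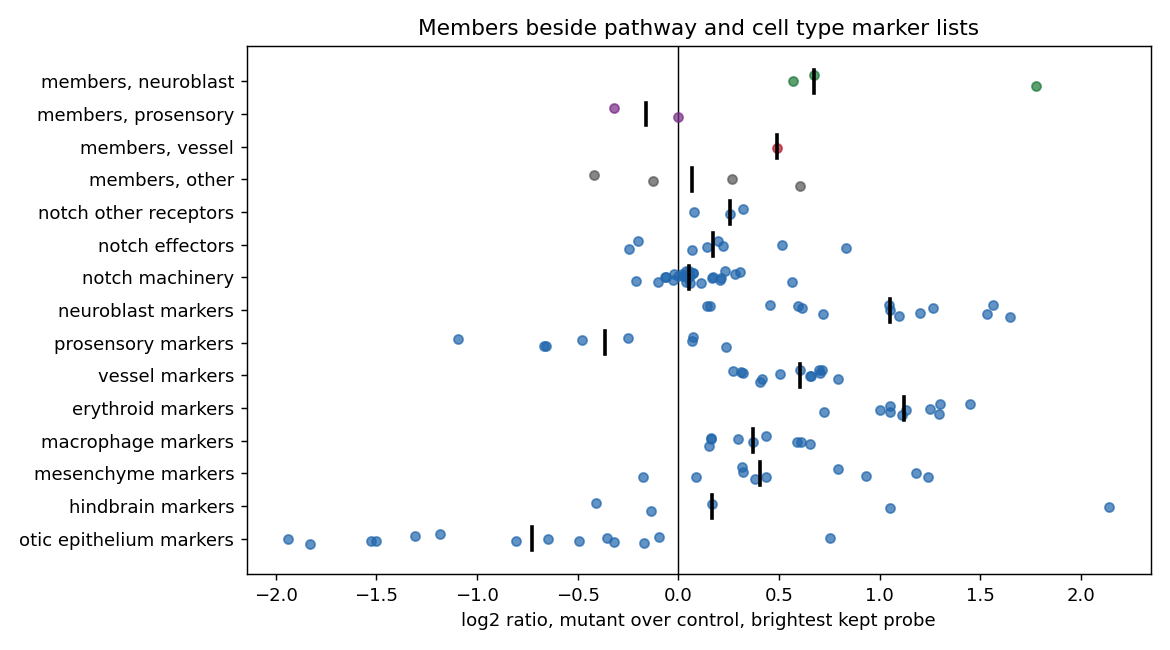
Log2 ratio of mutant over control (x axis) of the members by group and of the pathway and marker lists, 1 point per gene at its brightest kept probe, with a black bar at the median. Dll1 and Mfng lie within the range of the neuroblast markers and Dll3 to the right of all of them, Dll4 within the vessel markers, and Lfng and Jag1 within the prosensory markers, while most points of the Notch machinery stand near 0.

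Jag2, a Jagged-type ligand, was higher on every array, with levels of 9.45, 9.32, 9.27 and 8.99 in the mutant against 8.66, 8.59, 8.67 and 8.68 in the control. The control levels were tight, and the mutant level of replicate 4 was the lowest of the mutants but above all controls. The ratios were 0.79, 0.73, 0.60 and 0.30, a mean of 0.61 ± 0.22 (SD, n = 4 arrays; limma SE 0.08, adjusted p = 0.00216), or 1.52-fold. Its probe lies on chromosome 12 (114146887 to 114146946, mm9). The 2 Jagged-type ligands thus gave different calls, 1.52-fold for Jag2 and an interval around 0 for Jag1; the difference between them was not tested.

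Dner, a membrane protein with EGF repeats that is made mainly by neurons and can bind Notch, went the other way. It was dim, with levels of 6.96, 6.89, 7.03 and 7.07 in the mutant, where 2 of 4 arrays had it well above background, and 7.53, 7.32, 7.36 and 7.42 in the control. No mutant level reached a control level. The log2 ratio was -0.42 ± 0.11 (SD, n = 4 arrays; limma SE 0.06, adjusted p = 0.00279), lower on 4 of 4 arrays. With the scanner software's ratios it was -0.997 and with normexp at an offset of 0 it was -0.65. The neuroblast and early neuron markers that were called had the opposite sign. Its probe lies on chromosome 1 (84366416 to 84366475, mm9).

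Rfng, the third fringe, did not pass the test with either probe. The brighter probe had levels of 11.76, 11.65, 11.60 and 11.36 in the mutant and 11.79, 11.68, 11.68 and 11.72 in the control, with ratios of -0.03, -0.03, -0.09 and -0.36 (limma estimate -0.12, 95% interval -0.28 to 0.03, adjusted p = 0.246). The other had -0.02, -0.05, 0.03 and -0.40 (estimate -0.11, interval -0.28 to 0.05, adjusted p = 0.315). Replicate 4 was the lowest with both. The 3 fringes therefore stood at 0.68 for Mfng, -0.12 for Rfng and -0.32 for Lfng on the log2 ratio scale at their brightest probes, and differences among the 3 were not tested.

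Notch1, the receptor, was read by 2 probes on chromosome 2 that differed in their call. Their first 30 bases, from different genomic stretches (mm9 26314630 to 26314689 and 26319440 to 26319499, in that order), were as follows.
Notch1 probe 1: ttgcttctttccaaaatcgaaaagaaagaa
Notch1 probe 2: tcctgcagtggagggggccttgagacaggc

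The brighter probe had levels of 8.68, 8.44, 8.36 and 8.16 in the mutant and 8.11, 7.94, 7.98 and 8.55 in the control. On replicates 1 to 3 the mutant was higher, by log2 ratios of 0.56, 0.50 and 0.38, and on replicate 4 it was lower at -0.39, the control RNA of that array giving the highest control level. Over the 4 arrays the estimate was 0.27 with a 95% interval from -0.05 to 0.58 (limma adjusted p = 0.215); without replicate 4 it was 0.49 with an adjusted p of 0.00118, and without replicate 2 it was 0.04 with an adjusted p of 0.736. In the fit without replicate 2, replicate 4 alone had the mutant in green, and with the dye term it weighed as much as replicates 1 and 3 together. The dimmer probe, which was well above background in the control on 2 of 4 arrays, had levels of 7.46, 7.41, 7.72 and 7.58 in the mutant and 6.98, 6.99, 7.24 and 7.39 in the control. Its levels did not overlap, and it had ratios of 0.48, 0.42, 0.48 and 0.19, a mean of 0.39 ± 0.14 (SD, n = 4 arrays; limma SE 0.06, adjusted p = 0.00352). The dimmer probe gave 0.58 with normexp at an offset of 0, and 0.83 with the scanner software's ratios, which differ in background correction and normalization.

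Replicate 4 gave the lowest ratio for 6 of the 14 member probes (Dll1, Jag2, both of Notch1 and both of Rfng), and for 29.2% of all kept probes. Among the 3 other receptors, Notch2 had ratios of 0.47, 0.31, 0.54 and -0.04, Notch3 0.38, 0.20, 0.22 and -0.48, and Notch4 0.34, 0.42, 0.22 and 0.05, each lowest on that array too. Of these 3, 2 were higher at the adjusted p, Notch2 at 0.32 and Notch4, the receptor of endothelium, at 0.26. Without replicate 4, 9 member probes were higher and 2 lower, against 11.7% and 7.96% of all kept probes at that setting.

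The downstream genes and the machinery of the pathway were read with the same fit. Of 9 effector genes, 8 were tested, 4 were higher and 0 lower, against 12.4% and 9.67% of all kept probes. Their median log2 ratio was 0.17. Heyl had 0.83, Hes6, a Hes gene of differentiating neurons, 0.51, and Hey1 0.22. The other called effector, Hes1, had 0.16, 0.20, 0.21 and 0.23 on replicates 1 to 4 (limma adjusted p = 0.0301). Nrarp had -0.19, -0.07, -0.22 and -0.31 on replicates 1 to 4, and its estimate of -0.20 was not called (limma adjusted p = 0.0543). Hey2 at -0.24 was not called either (limma adjusted p = 0.179). Hes5, a direct target in neural progenitors, gave -0.91, 1.26, -0.89 and 1.12 on replicates 1 to 4, in step with the dye orientation, and its estimate of 0.14 was not called (adjusted p = 0.103). Of 28 genes of the machinery, all tested, 3 were higher and 0 lower, with a median of 0.05; a count of 3 in 28 is near the 12.4% called higher among all kept probes. Adam10, a protease that cuts the receptor, had 0.57, Neurl1a, a ubiquitin ligase of ligands, 0.31, and Dlk1, a Delta-like protein, 0.28. Rbpj at 0.21 was not called (limma adjusted p = 0.0965).

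**Figure D4:**
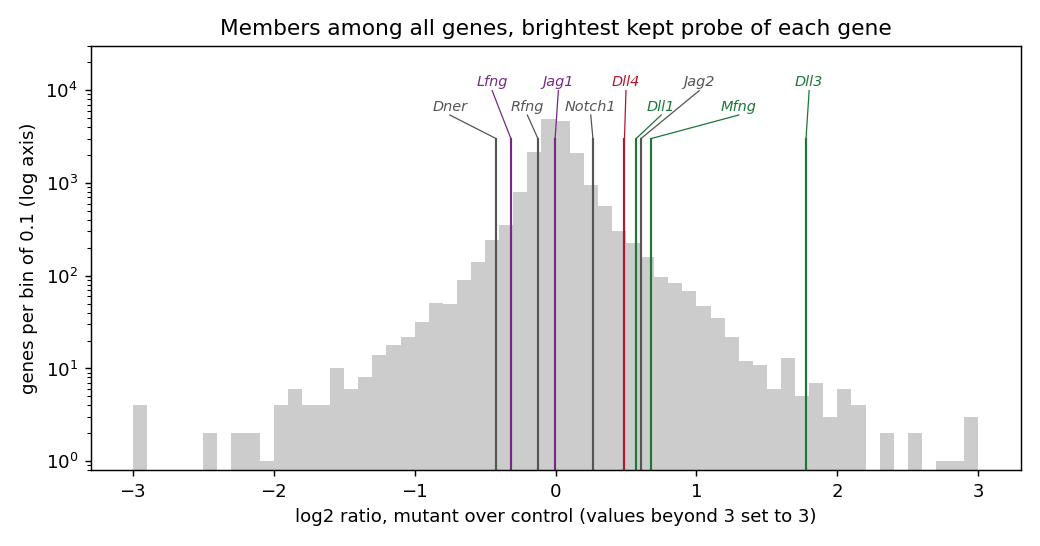
Distribution of log2 ratios of mutant over control (x axis) over 18409 genes or unnamed targets, counted in bins of 0.1 on a log y axis, with the 10 members marked at their brightest kept probe. Dll3 at 1.78 stands in the far right tail, while Jag1 at -0.0029 and Rfng at -0.12 lie near the peak.

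A second comparison asked whether the genotype difference differed between the female pair of arrays and the male pair, as an interaction term in limma. This fit left fewer residual degrees of freedom than the main fit. With 2 arrays per sex, in opposite dye orientations, a sex difference cannot be told from a difference between particular RNAs or arrays. At an adjusted p under 0.05, 0 of the 14 member probes were called, as were 0.0173% of all kept probes. At an unadjusted p under 0.05 there were 4 of the 14, against 16.6% of all kept probes. The 4 were the brighter Notch1 probe (female mean 0.53, male mean -0.0024, female minus male 0.54, adjusted p = 0.184), the brighter Dll3 probe (1.93 and 1.63, difference 0.30, adjusted p = 0.189), Jag2 (0.76 and 0.45, difference 0.31, adjusted p = 0.202) and Lfng (-0.46 and -0.18, difference -0.28, adjusted p = 0.288). For Notch1 the 2 male arrays themselves disagreed, at 0.38 and -0.39. With median centring in place of loess, the Notch1 difference was 0.50 with an adjusted p of 0.0291.

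For each called member, the 2 other named genes with the nearest profile were listed by the root mean square difference of the log2 ratios over the 4 arrays. Tril (0.037) and Wfdc3 (0.066) lay nearest to Dll1, and Ccdc88b and Clec18a (0.12 each) to Dll3. Clec1b (0.066) and Uba7 (0.067) lay nearest to Mfng, and Kcnk10 (0.065) and Crybg1 (0.069) to Lfng. Mcc (0.039) and Emb (0.046) lay nearest to Dll4, Pear1 (0.062) and Kdm2b (0.064) to Jag2, and Arl4c and Plekhb1 (0.039 each) to Dner. Over 4 arrays such near matches are a description only.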

How the data were processed

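The authors deposited spot intensities and local background intensities of 2-colour scans; the submitters' processing notes name Agilent Feature Extraction 10.7.3.1. The files also hold log10 ratios of red over green that the software made, per the file headers, and its 0 or 1 flags. A further table of theirs gives a fold ratio with a sign for each probe, which the authors deposited as the series' values; as mutant over control on the log2 scale it lay within 0.001 of the scanner ratio for 90.8% to 93.3% of 39429 probes, with a median of 1 on each array, and how it was made for the other probes is unknown. Coordinates are those of the files (mm9); exon and UTR annotation of that build was not used here.

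Here, mean signals were corrected with normexp (offset 50) and normalized by loess within arrays, control spots having weight 0, in limma 3.58.1 under R 4.3.3. Non-uniform spots (21 to 33 per array) were left out, 0 were saturated, and spots of a probe were averaged. Log2 ratios of 23177 kept probes with a value on all 4 arrays were fitted with lmFit and eBayes (genotype by dye orientation and a dye term; residual degrees of freedom 2, prior 4.82), with Benjamini-Hochberg adjustment over all kept probes. SDs are of the ratios over 4 arrays and include the dye effect. Channel levels are after Aquantile normalization. The arrays shared 1 slide and 1 scan, so no slide batch was tested; their number, 4, limits the precision. The steps were run on simulated data at the brighter probes only. That run does not speak for dim probes or for fold changes smaller than those simulated. Lists were read at the brightest kept probe of each gene, named through a RefSeq table (GRCm38.p6, names only; 26412 probes by accession, 3854 by symbol, 735 by synonym, 8428 by the file's name). Of each list, up to 3 genes with the smallest adjusted p were to be named, and others named were chosen after their values were seen. For each called member the 2 nearest profiles were named. The members and lists were chosen with earlier results of these data known. Alternatives covered background correction, normalization, source of the ratios, filter, model terms, probe rule, array weights and leaving out each array. Fits without an array kept the dye term, so the array left alone in its dye orientation weighed as much as the other 2 together.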

Additional observations from a re-analysis of the deposited data

Results flagged for a closer look

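The Dll1 log2 ratio of 0.27 on replicate 4 stood apart from the 0.65 to 0.71 of the other 3 arrays: its gap to the nearest of them, divided by the range, was 0.872, past Dixon's critical value at the 95% level for 4 values. Chance alone marks about 1 in 20 such groups. Of the 14 probes tested in this way, this was the single one past the value; both Rfng probes, at 0.824 and 0.828, and Lfng, at 0.822, came close to it. Without replicate 4, Dll1 had a log2 ratio of 0.67 (limma adjusted p = 0.000118).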

How the results depend on the processing

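The 4 arrays limit the precision. Among called probes, the log2 ratios of Dll4, Dner and the dimmer Notch1 probe moved by over 1.5 times with the scanner software's ratios. Of the probes not called, the dimmer Rfng probe went from -0.11 to -0.20 and Jag1 from -0.0029 to -0.018 with these ratios. Of 204 log2 ratios of member probes under alternatives, 194 kept their direction and their side of an adjusted p of 0.05. This count includes alternatives of filter, model terms, probe rule and array weights. Those left each log2 ratio as in the main fit, so only its adjusted p could move. The series value table also held nearly the same ratios as the scanner software. Jag1, not called, ran from -0.0574 to 0.0515 when leaving out an array, with its sign changed without replicate 1 (0.0515) and without replicate 2 (0.00635). Lfng lost its call 5 times, also with normexp at an offset of 0 (-0.33, adjusted p = 0.0510) and with the series value table (-0.34, adjusted p = 0.0621). Hence 1 member probe was called lower, in place of 2, with normexp at an offset of 0, the scanner software's ratios and the series value table, and 1 to 2 when leaving out an array; requiring both genotypes above background on all arrays also left 1, because Dner was not tested. The brighter Notch1 probe passed the threshold 3 times, without replicate 4, with median centring (0.29, adjusted p = 0.0493) and with the sex term (0.27, adjusted p = 0.0401). The count of higher member probes was 5 with the brightest probe of each gene, where 10 probes were tested, and 7 to 9 under the other alternatives. Over all probes the count of lower calls, when leaving out an array, ran from 1337 without replicate 3 to 2163 without replicate 2. With median centring 1 member probe (Notch1) was called for the difference between sexes. The causes were not tested.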
